A study of Mus musculus with 6 samples.

Results

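The Ly6 surface antigen family was examined in RNA-seq of mouse colon epithelium as 9 genes, *Ly6a*, *Ly6c1*, *Ly6c2*, *Ly6d*, *Ly6e*, *Ly6g*, *Ly6g6c*, *Ly6g6d* and *Ly6g6e*. The genes were picked by family name, though with earlier results of these data known, and they are 9 of the 52550 genes listed in each sample. All 9 were found through their Ensembl identifiers.

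Ly6 proteins are small glycoproteins built on the LU domain, a cysteine-rich three-finger fold that is also found in the urokinase receptor. Most are held on the outer face of the cell membrane by a glycosylphosphatidylinositol (GPI) anchor, and several have long served as surface antigens to sort blood and stromal cells. In the gut, members of the wider LU-domain family are made by the epithelium itself, and several Ly6 genes respond to interferon.

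Of the samples, 3 were *Zfp90* fl/fl, called control samples here, and 3 were *Zfp90* ΔIEC, called ΔIEC samples, whose mice lack the zinc finger gene *Zfp90* in intestinal epithelial cells through Villin-cre, a recombinase driven by an epithelial promoter. All were C57BL/6 males, 6 to 8 weeks old, that received azoxymethane (AOM) at 10 mg/kg, and after 5 days 2% dextran sulfate sodium (DSS) in the water for 7 days and then plain water for 14 days, in 3 cycles, with euthanasia on day 80, all as the labels give it. The methods of the paper give a different DSS concentration and a different age. Epithelial cells were released with EDTA and DTT. Mice of each genotype were kept separately after weaning, which means that effects of cage and of genotype cannot be told apart, and 2 of the ΔIEC samples, whose genotype label names another gene number, were grouped by their titles. The labels do not tie the samples to single mice, and p-values measure the spread between these samples only.

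Values are FPKM, that is fragment counts scaled to transcript length and to library size, which allows levels of different genes to be compared per length. The files give no counts, and from the size of the smallest steps between values about 25600000 to 28500000 fragments per sample were estimated. *Zfp90* itself was at 0.490 to 0.630 FPKM in the control samples and at 0.0846 to 0.195 FPKM in the ΔIEC samples, with no overlap (limma adjusted p = 0.123 in a fit without a filter on low values). Epithelial markers were high in every sample, such as *Epcam* at 554 to 608 FPKM. Cells carrying fewer transcripts and fewer cells of a type cannot be told apart in such bulk samples.

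The 9 members fell into a high group of 3 genes and a low group of 6. *Ly6a*, which encodes the stem cell antigen Sca-1, was the most abundant, with a mean of 52.4 FPKM over the 6 samples. *Ly6g*, the gene of the antigen by which neutrophils are commonly recognised, followed at 29.0 FPKM, and *Ly6e*, an interferon-inducible member, at 22.8 FPKM. These 3 genes made up 91.0 to 94.8% of the summed FPKM of the family in a sample.

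*Ly6a* was above *Ly6g* in 6 of 6 samples and *Ly6g* above *Ly6e* in 5 of 6, but the ranges of both pairs of neighbours overlapped. A clear gap followed, since the lowest *Ly6e* value, 17.2 FPKM, was above the highest *Ly6g6e* value, 5.57 FPKM. Next came *Ly6g6e* with a mean of 3.73 FPKM and *Ly6g6d* with 1.88 FPKM, whose ranges were apart too. *Ly6c1* at 1.41, *Ly6g6c* at 0.556, *Ly6d* at 0.375 and *Ly6c2* at 0.0724 FPKM closed the order, and each of these overlapped the neighbour above it.

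**Figure D1:**
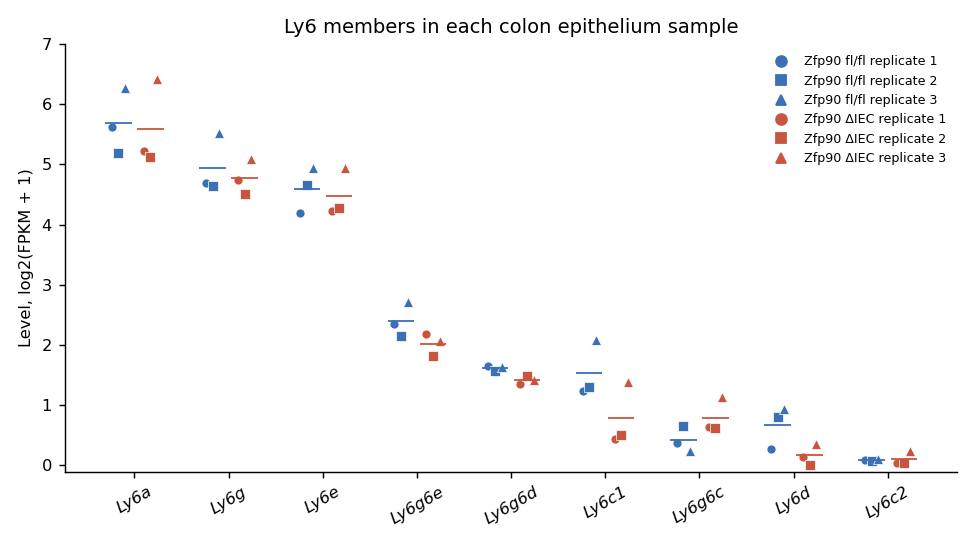
Level of each Ly6 member, as log2(FPKM + 1), in the 6 samples; colours give the genotype, symbols the replicate number and short lines the genotype means on that scale. *Ly6a*, *Ly6g* and *Ly6e* sit far above the other 6 members in every sample, and replicate 3 of both genotypes is the highest of its genotype for each of them.

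Values of *Ly6a* were 48.3, 35.6 and 75.8 FPKM in the control samples and 36.4, 34.0 and 84.4 FPKM in the ΔIEC samples. Values of *Ly6g* were 24.8, 23.9 and 44.7 FPKM against 25.7, 21.9 and 32.9 FPKM, and those of *Ly6e* 17.2, 24.2 and 29.5 FPKM against 17.6, 18.4 and 29.7 FPKM, in the same order of samples. Replicate 3 was the highest sample of either genotype for all 3 genes, and the genotypes overlapped. Of the 6 members tested with the filter described next, 4 were highest in replicate 3 of both genotypes, beside 9.29% of all genes tested. The replicate 3 libraries had an estimated 28500000 (control) and 27900000 (ΔIEC) fragments, beside 25600000 to 28400000 in the other 4, so that the control one was the deepest by a small margin.

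To ask whether the family differed between genotypes, log2(FPKM + 1) was compared with limma over the 11564 genes that reached 1 FPKM in 3 or more samples, and a gene was called at an adjusted p under 0.05. Of all genes tested, 0.199% were called, 23 in number. Of the 9 members, 6 passed the filter on low values and 0 of them were called. At an unadjusted p under 0.05 there were 3 of the 6, *Ly6c1*, *Ly6g6d* and *Ly6g6e*, beside 14.6% of all genes tested. The 3 members below the filter, *Ly6c2*, *Ly6d* and *Ly6g6c*, were compared in a fit of all 27805 genes above 0 in some sample, where 0.0539% of genes were called, 0 of them members, and where 1 of the 3, *Ly6d*, had an unadjusted p under 0.05, beside 9.96% of genes.

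All 6 members that passed the filter had a mean difference below 0, ΔIEC minus control, beside 57.2% of all genes tested, and the median was -0.18 on the log2(FPKM + 1) scale against -0.023 over all genes tested. The summed FPKM of the 9 members was 118 ± 38.8 (SD, n = 3) in the control samples and 107 ± 42.0 (SD, n = 3) in the ΔIEC samples. In the single samples the sum was 98.4, 92.0 and 162 FPKM against 85.9, 79.5 and 155 FPKM. By a two-sided exact permutation test of its log2 values p was 0.5, where the smallest p this design allows is 0.1. The direction of the sum turned without control replicate 3, to 0.17 as the log2 ratio of means, and without ΔIEC replicate 2, to 0.036, from -0.14 with all samples.

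**Figure D2:**
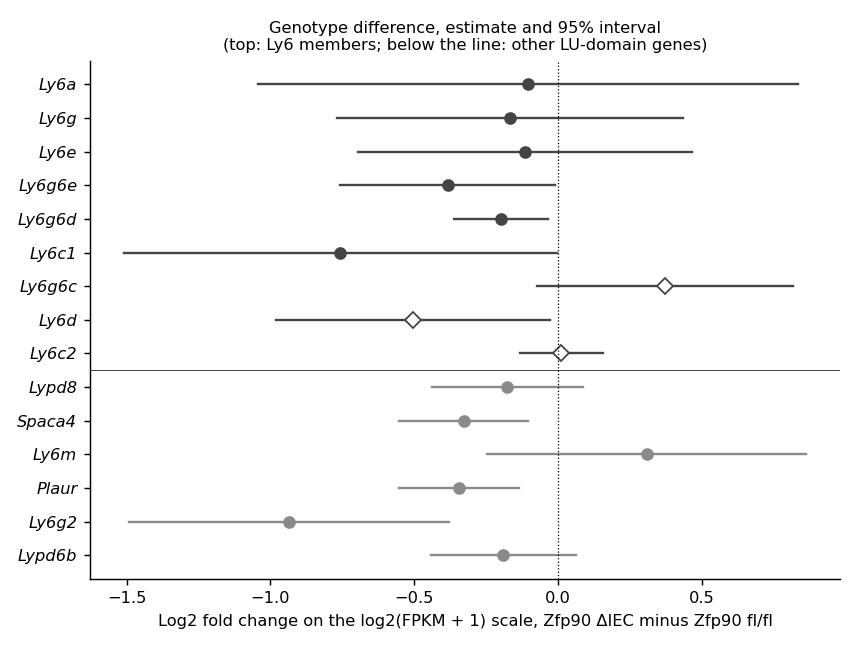
Difference between genotypes for the 9 Ly6 members and, below the line, for other LU-domain genes with a mean of at least 1 FPKM; points are the limma log2 fold change on the log2(FPKM + 1) scale, ΔIEC minus control, bars the 95% interval, and open diamonds the genes fitted without the filter on low values. The interval of *Ly6a* runs from -1.04 to 0.83, while that of *Ly6g6d* is much narrower, from -0.36 to -0.033.

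For *Ly6a* the difference was -0.10 (standard error 0.396, limma adjusted p = 0.922). Its 95% interval ran from -1.04 to 0.83, so that sizeable differences in either direction remain compatible with these samples. The direction was not held either, since it was 0.18 without control replicate 3, 0.080 without ΔIEC replicate 1 and 0.13 without ΔIEC replicate 2, and -0.52 without ΔIEC replicate 3. *Ly6a* is also known as a gene of regenerating, fetal-like colon epithelium. In a list of 11 other genes of that state, 7 passed the filter and 0 were called, 3 were below 0 and 4 above, and their summed level was 237 to 276 FPKM in the control samples and 245 to 267 FPKM in the ΔIEC samples. *Areg*, an EGF receptor ligand and the most abundant of them, weighs most in this sum, at 126, 158 and 155 FPKM against 148, 135 and 162 FPKM. Its highest ΔIEC value was in replicate 3, as for *Ly6a*, but its highest control value was not. At an unadjusted p under 0.05 there were 4 of the 7, beside 14.6% of all genes tested. Of the 7, 2 were lower in every ΔIEC sample than in any control sample, *Anxa1* and *Il1rn*, beside 12.6% of all genes tested. In the opposite direction, 1 of the 7 was higher without overlap.

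For *Ly6g* the difference was -0.17 (standard error 0.254, limma adjusted p = 0.802), from a mean of 31.1 ± 11.8 FPKM (SD, n = 3) to 26.8 ± 5.62 FPKM (SD, n = 3). Its interval ran from -0.77 to 0.43, and without control replicate 3 the value was 0.12. For *Ly6e* the difference was -0.11 (standard error 0.246, limma adjusted p = 0.867), and it became 0.056 without control replicate 3 and 0.015 without ΔIEC replicate 1. For each of the 3 abundant members the difference between the genotype means was smaller than the SD of either genotype.

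*Ly6g* rose and fell with *Ly6a* across the samples, with a Pearson r of 0.86 and a Spearman rho of 0.89 on log2(FPKM + 1) over 6 samples that come from 2 genotypes and share 1 scaling. The 2 samples farthest from the median *Ly6a* level are replicate 3 of both genotypes. Without them r was 0.45 over the other 4 samples, so that the likeness rests mostly on those 2 libraries. Of 11563 other genes, *Ly6g* was in place 81 by its correlation with *Ly6a*, and *Ly6a* was in place 85 by its correlation with *Ly6g*. *Ly6e* followed *Ly6a* less closely, with r = 0.77 and, without the same 2 samples, r = -0.43.

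The ratio of *Ly6g* to *Ly6a* FPKM was 0.513, 0.673 and 0.590 in the control samples. In the ΔIEC samples it was 0.708, 0.643 and 0.390. The lowest ratio was that of ΔIEC replicate 3, the sample with the most *Ly6a*, where *Ly6g* was 32.9 FPKM against 44.7 FPKM in control replicate 3. The means were 0.592 ± 0.0805 (SD, n = 3) and 0.580 ± 0.168 (SD, n = 3), and a two-sided exact permutation test of the log2 ratio gave p = 0.9. The difference of the mean log2 ratio, -0.066 with all samples, was 0.032 without control replicate 2 and 0.20 without ΔIEC replicate 3.

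**Figure D3:**
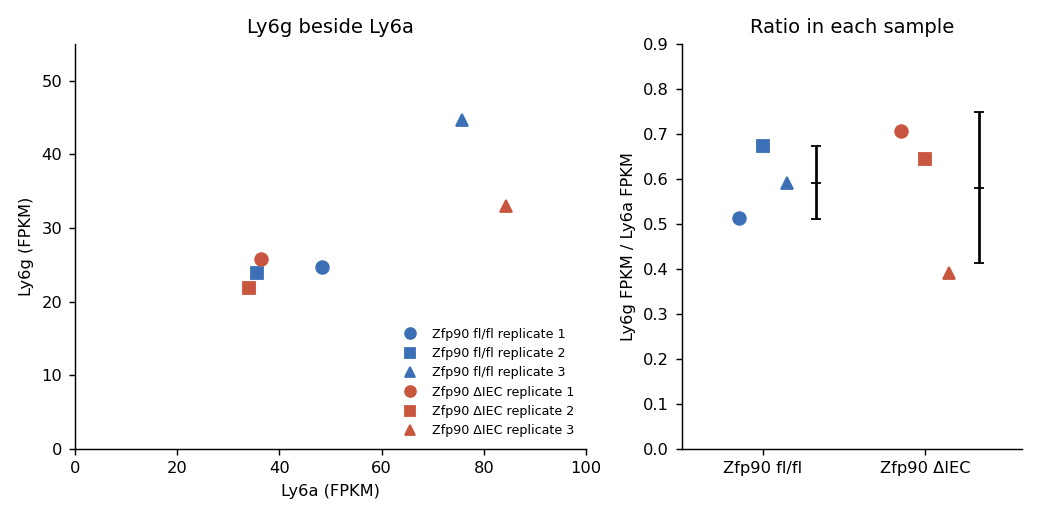
Left, *Ly6g* against *Ly6a* FPKM in each of the 6 samples; right, the ratio of both by genotype, with the mean and SD of 3 samples as a black bar. The 4 samples of replicates 1 and 2 lie together at 34.0 to 48.3 FPKM of *Ly6a*, and both replicate 3 samples stand apart at 75.8 and 84.4 FPKM.

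The genes most like *Ly6a* over the 6 samples, by Pearson r of log2(FPKM + 1) among all genes tested, were *Ifih1* (r = 0.993), *Fam49b* (r = 0.987), *Sp100* (r = 0.983), *AW112010* (r = 0.982) and *Psmb8* (r = 0.971). *Psmb8* was at 2.71, 2.32 and 6.14 FPKM in the control samples and at 2.40, 2.44 and 6.09 FPKM in the ΔIEC samples. *AW112010* was at 32.7, 28.4 and 47.6 FPKM against 25.7, 24.4 and 46.3 FPKM. Both had replicate 3 of each genotype as their highest samples, as *Ly6a* had.

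The genes most like *Ly6g* were *Dusp1* (r = 0.989), *Tmem62* (r = 0.985), *Gda* (r = 0.975), *Gm49654* (r = 0.953) and *H2afz* (r = 0.953), and none of them is among those of *Ly6a*. *Gda* was at 10.4, 10.6 and 17.9 FPKM in the control samples and at 10.0, 9.13 and 12.2 FPKM in the ΔIEC samples. With 6 samples and 11563 genes, high values of r arise in many genes, and these names describe the pattern only.

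*Ly6a* and *Ly6e* are induced by interferon in many cell types, and the levels of 27 other interferon-stimulated genes were set beside them. Of these 19 passed the filter, 0 were called, 13 were above 0 and 6 below, and their median difference was 0.067 against -0.023 over all genes tested. Their summed level was 86.8, 90.5 and 124 FPKM in the control samples and 78.6, 121 and 119 FPKM in the ΔIEC samples. ΔIEC replicate 2 was thus among the 3 samples with a high sum, while its *Ly6a* level was the lowest of all. *Oas1a*, an antiviral sensor, was at 23.5, 26.1 and 28.9 FPKM against 23.9, 31.4 and 30.9 FPKM, and *Irf7*, a transcription factor of the interferon response, at 7.86, 8.00 and 9.78 FPKM against 9.13, 15.3 and 11.7 FPKM.

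Since *Ly6g* is used to mark neutrophils, its level was set beside 13 neutrophil markers that do not include it. All 13 were low, and their summed level of 2.68, 2.66 and 3.59 FPKM in the control samples was far under that of *Ly6g* alone. In the ΔIEC samples the sum was 0.293, 0.182 and 0.349 FPKM. The genotypes did not overlap in the sum, whereas they did in *Ly6g*. In the control samples *S100a9* and the myeloid integrin *Itgam* weighed most in this sum. *S100a9* was at 0.881, 0.476 and 1.62 FPKM against 0 in each ΔIEC sample. *Itgam* was at 0.943, 1.01 and 0.928 FPKM against 0.151, 0.132 and 0.180 FPKM. Of the 13, 6 were lower in every ΔIEC sample than in any control sample, beside 8.88% of all genes above 0 in some sample. *S100a8*, a calcium-binding protein that is abundant in neutrophils, was at 0.236, 0.466 and 0.451 FPKM against 0 in each ΔIEC sample. *Csf3r*, the receptor for granulocyte colony-stimulating factor, was at 0.260, 0.277 and 0.262 FPKM against 0, 0 and 0.0180 FPKM.

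Without the filter, 2 of the 13 neutrophil markers were called lower, *Itgam*, an integrin of myeloid cells (log2 fold change -0.76, limma adjusted p = 0.0199), and *Csf3r* (-0.33, limma adjusted p = 0.0177), beside 0.0360% of all genes in that fit. Each call was lost in 9 of 12 alternative fits. Over all 12 fits the limma adjusted p ranged from 0.00939 to 0.344 for *Itgam* and from 0.0171 to 0.344 for *Csf3r*. Of the 13, 6 were listed at 0 in all ΔIEC samples, and 1 of these, *Ngp*, in all control samples too. *Retnlg* and *Mmp8*, also among the 6, were each above 0 in only 1 control sample. *Elane* and *Camp* were above 0 only in ΔIEC replicate 1, at 0.0256 and 0.0483 FPKM. The share of all genes listed at 0 in this way was not counted. *Ly6g* was at 21.9 FPKM or more in the ΔIEC samples.

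**Figure D4:**
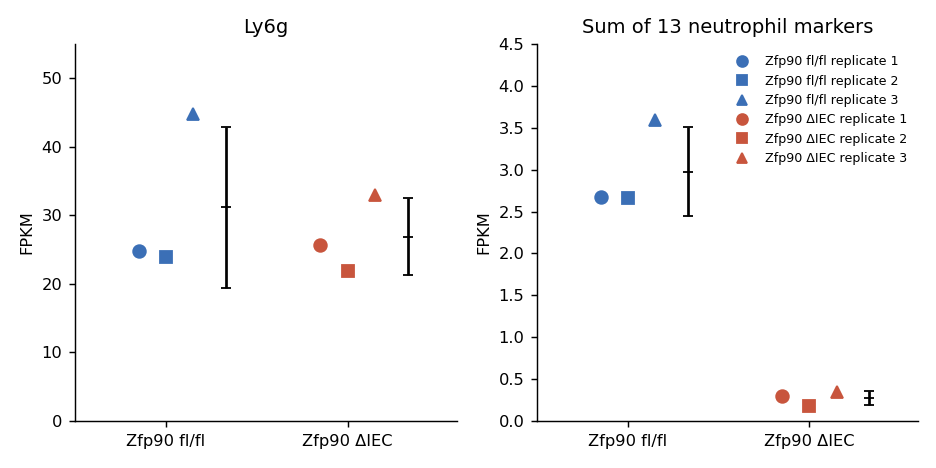
FPKM of *Ly6g* (left) and summed FPKM of 13 neutrophil markers without *Ly6g* (right) in each sample, with the mean and SD of 3 samples as a black bar; the 2 vertical axes differ in range. The genotypes overlap for *Ly6g* at 21.9 to 44.7 FPKM, while the marker sum is 2.66 to 3.59 FPKM in the control samples and 0.182 to 0.349 FPKM in the ΔIEC samples.

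*Ly6c1* and *Ly6c2* encode the Ly6C antigen, which is known from monocytes, T cells and endothelium. *Ly6c1* was at 1.36, 1.46 and 3.24 FPKM in the control samples and at 0.362, 0.422 and 1.63 FPKM in the ΔIEC samples. Replicate 3 was the highest in both, and replicate 3 of ΔIEC was above the other 2 control samples, so that the genotypes overlapped. The mean was 2.51 times higher in the control samples, 2.02 ± 1.06 against 0.804 ± 0.714 FPKM (SD, n = 3). On the log2(FPKM + 1) scale the difference was -0.76 (standard error 0.318, limma adjusted p = 0.340), and it was -1.39 with a pseudocount of 0.1 FPKM.

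*Ly6c2* was at 0.0684, 0.0551 and 0.0773 FPKM against 0.0267, 0.0249 and 0.182 FPKM. These values are near the lower end of what the depth can show, and the difference of 0.011 (limma adjusted p = 0.952) changed sign to -0.057 without ΔIEC replicate 3, to -0.018 with a pseudocount of 0.1 FPKM and to -0.050 without replicate 3 of both genotypes. Of 12 markers of monocytes and macrophages, 8 were lower in every ΔIEC sample than in any control sample, beside 8.88% of all genes above 0 in some sample. Their sum was 8.28 to 10.9 FPKM against 3.33 to 4.76 FPKM, and the sum of 8 T cell markers was 4.22 to 6.63 FPKM against 3.09 to 4.70 FPKM. The sum of 9 endothelial markers was 0.544 to 0.705 FPKM against 0.861 to 0.908 FPKM, the opposite order. The markers did not move together. *Pecam1* was at 0.313, 0.261 and 0.197 FPKM against 0.477, 0.417 and 0.480 FPKM, and *Esam* was higher in the ΔIEC samples too. *Vwf* went the other way, at 0.175, 0.137 and 0.150 FPKM against 0.122, 0.0889 and 0.118 FPKM. The part of these cell types in the *Ly6c1* values was not tested.

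*Ly6d*, known from squamous epithelium and early B-lineage cells, was at 0.209, 0.752 and 0.905 FPKM in the control samples and at 0.0985, 0 and 0.287 FPKM in the ΔIEC samples. These values stand for about 3.98, 15.6 and 19.2 fragments against 2.03, 0 and 5.96. Its difference was -0.50 (standard error 0.193, limma adjusted p = 0.470), and it was -1.70 with a pseudocount of 0.1 FPKM. Of 10 squamous markers none passed the filter, and their sum was 1.03 to 1.78 FPKM against 0.925 to 1.54 FPKM. The keratin *Krt14*, the most abundant of them, was at 0.750, 1.44 and 0.640 FPKM against 0.873, 0.652 and 1.18 FPKM, in an order of samples unlike that of *Ly6d*. The sum of 7 markers of B and plasma cells was 1.81 to 2.35 FPKM against 0.712 to 1.33 FPKM, and its part in the *Ly6d* values was not tested.

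The other 3 members lie together in the class III region of the major histocompatibility complex on chromosome 17. *Ly6g6d*, known in human as an antigen of colorectal cancer, was at 2.14, 1.97 and 2.10 FPKM in the control samples and at 1.57, 1.80 and 1.67 FPKM in the ΔIEC samples. It was the only one of the 9 members whose genotypes did not overlap, beside 12.6% of all genes tested that were lower in this way. The means were 2.07 ± 0.0860 and 1.68 ± 0.117 FPKM (SD, n = 3), a ratio of 1.23. The difference was -0.20 (standard error 0.0689, limma adjusted p = 0.269).

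*Ly6g6e* was at 4.08, 3.46 and 5.57 FPKM against 3.55, 2.53 and 3.17 FPKM. Only ΔIEC replicate 1 was above a control sample. The difference was -0.38 (standard error 0.158, limma adjusted p = 0.330). *Ly6g6c* went the other way, at 0.300, 0.572 and 0.181 FPKM against 0.553, 0.536 and 1.20 FPKM, a difference of 0.37 (standard error 0.179, limma adjusted p = 0.562) that was 0.94 with a pseudocount of 0.1 FPKM.

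*Ly6g6d* (chr17:35071443-35078065, minus strand) and *Ly6g6e* (chr17:35076902-35078804, plus strand) overlap on opposite strands of GRCm38, in the GENCODE M21 annotation. The labels call the libraries strand-specific, but the strand setting of the counting is not given in the sources used here, and to which gene reads of the overlap were assigned was not tested. *Ly6g6c* (chr17:35065388-35070050, plus strand) overlaps *Mpig6b* in the same way.

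The other 6 members lie in the Ly6 cluster on chromosome 15 of GRCm38. From low to high coordinate they are *Ly6d* (chr15:74762056-74763620, minus strand), *Ly6e* (chr15:74955051-74959905, plus strand), *Ly6a* (chr15:74994877-74998031, minus strand), *Ly6c1* (chr15:75044018-75048830, minus strand), *Ly6c2* (chr15:75108158-75111970, minus strand) and *Ly6g* (chr15:75155240-75159126, plus strand). *Ly6a*, *Ly6c1*, *Ly6c2* and *Ly6g* are close copies, and whether their reads can be told apart bears on their values. Over the whole coding sequence *Ly6g* was identical to *Ly6a* at 84.1% of aligned positions, and *Ly6c1* to *Ly6c2* at 97.7%.

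The following 30 bases open the coding sequence of each of these 4 genes, from the ATG on (exonic, GENCODE M21 transcripts, 5′ to 3′ on the gene's strand), and capitals mark the bases that differ from *Ly6a* at the same position of the window. They are shown because *Ly6c1* has the same letters as *Ly6a* there, whereas *Ly6c2* and *Ly6g* each differ at 3 of 30 bases. The windows are chr15:74997575-74997604 for *Ly6a*, chr15:75048482-75048511 for *Ly6c1*, chr15:75111638-75111667 for *Ly6c2* and chr15:75155645-75155674 for *Ly6g*.
Ly6a: atggacacttctcacactacaaagtcctgt
Ly6c1: atggacacttctcacactacaaagtcctgt
Ly6c2: atggacaGtActcacGctacaaagtcctgt
Ly6g: atggacacttGtcacaTtGcaaagtcctgt

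The last 30 coding bases, stop codon included, differ from *Ly6a* at 1 base in *Ly6c1* and in *Ly6c2* and at 5 bases in *Ly6g*, and are shown for that contrast. Their windows are chr15:74995262-74995291 for *Ly6a*, chr15:75045402-75045431 for *Ly6c1*, chr15:75108543-75108572 for *Ly6c2* and chr15:75158710-75158739 for *Ly6g*.
Ly6a: agctcagtcctcctgcagaccttgctctga
Ly6c1: agctcagtcGtcctgcagaccttgctctga
Ly6c2: agctcagtcAtcctgcagaccttgctctga
Ly6g: GTTtcagtcctTctgcagaccttTctctga

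Every stretch of 50, 75 and 100 bases in the annotated transcripts of the 9 members was looked up in all other genes' transcripts. For *Ly6g*, 4 of 892 stretches of 50 bases (0.448%) were found elsewhere, none of them in *Ly6a*, and 0 of 867 stretches of 75 bases. For *Ly6a*, 19.0% of stretches of 50 bases, 6.33% of 75 and 1.45% of 100 bases were found in another gene, mostly *Ly6c1*. For *Ly6c1* the shares were 32.8%, 19.0% and 10.1%, and for *Ly6c2* 14.4%, 9.46% and 5.81%, where the stretches of 50 bases matched 266 other genes.

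*Ly6e*, *Ly6d*, *Ly6g6c*, *Ly6g6d* and *Ly6g6e* shared no stretch of these lengths with another gene. The values of *Ly6a*, *Ly6c1* and *Ly6c2* are uncertain because of the shared stretches, but the shares do not give the size of the uncertainty. The counting could have split reads between *Ly6c1* and *Ly6c2* and between *Ly6c1* and the far more abundant *Ly6a*. With means of 1.41 FPKM for *Ly6c1* and 52.4 FPKM for *Ly6a*, reads misassigned between these 2 would weigh more on *Ly6c1*. The paper describes reads longer than the longest stretch looked up. How shared reads were counted is not given in the sources used here.

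**Figure D5:**
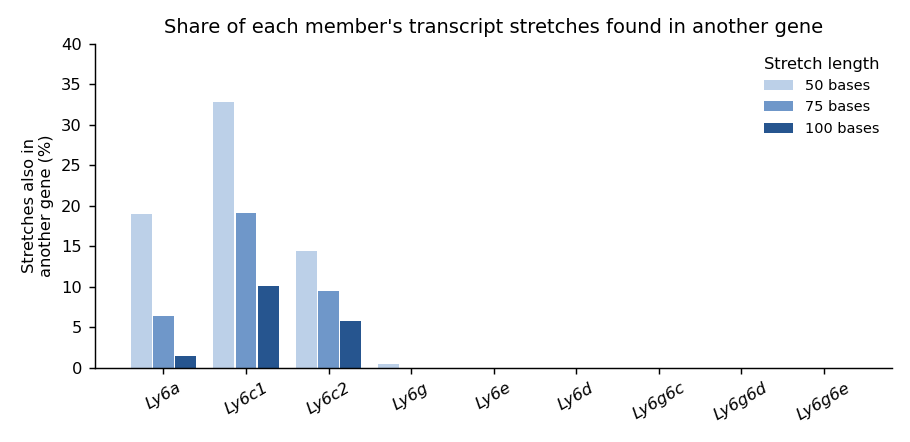
Share, in percent, of all stretches of 50, 75 and 100 bases in each member's annotated transcripts that also occur in a transcript of another gene. *Ly6c1* has the tallest bars, at 32.8%, 19.0% and 10.1%, *Ly6g* reaches 0.448% at 50 bases, and the last 5 members are at 0.

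Other LU-domain genes were followed by a list of 36, of which 35 were found. Of these, 7 passed the filter, 0 were called, 6 were below 0 and 1 above, and the median difference was -0.19 against -0.023 over all genes tested. *Lypd8*, a secreted protein of colonocytes that keeps flagellated bacteria off the epithelium, was far above every Ly6 member, at 4334, 4455 and 4731 FPKM against 3526, 3818 and 4712 FPKM. Its difference was -0.18 (standard error 0.111, limma adjusted p = 0.525).

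Among the 7, 3 were lower in every ΔIEC sample than in any control sample, beside 12.6% of all genes tested. *Ly6g2*, a neighbour in the chromosome 15 cluster that the annotation names *BC025446* and that was matched by position to RefSeq, was at 6.87, 8.36 and 10.8 FPKM against 2.62, 4.25 and 5.55 FPKM. Its difference of -0.93 (standard error 0.235, limma adjusted p = 0.143) was larger on this scale than that of any of the 9 members. *Plaur*, the urokinase receptor, was at 6.87, 8.84 and 7.80 FPKM against 5.75, 6.08 and 5.96 FPKM, and *Spaca4*, known from the sperm surface, at 15.4, 12.3 and 14.3 FPKM against 11.1, 10.0 and 11.6 FPKM.

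*Ly6m*, another gene of that cluster, went the other way without being called, at 7.36, 11.0 and 14.1 FPKM against 10.3, 14.1 and 15.9 FPKM. Replicate 3 was its highest sample in both genotypes, as for *Ly6a* and *Ly6g*. *Lypd6b* was at 1.18, 1.57 and 1.28 FPKM against 1.20, 1.14 and 0.823 FPKM, and its genotypes overlapped (limma adjusted p = 0.463). Of the 35 genes, 11 were listed at 0 in all 6 samples.

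The enzymes that build the GPI anchor and attach it to proteins were followed with a list of 25 genes, of which 24 were found and 23 passed the filter. Of these, 0 were called, 19 were below 0 and 4 above, and the median difference was -0.079 against -0.023 over all genes tested. *Pigt*, a subunit of the transamidase that attaches the anchor, was the most abundant, at 26.0, 27.8 and 27.9 FPKM against 24.5, 27.8 and 25.03 FPKM. *Gpaa1*, another subunit of that enzyme, was at 6.61, 8.08 and 8.20 FPKM against 6.49, 7.69 and 6.93 FPKM. The genotypes overlapped in both genes.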

How the data were processed

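RNA-seq of colon epithelium from 3 *Zfp90* fl/fl and 3 *Zfp90* ΔIEC samples was analysed. The authors deposited 1 file of FPKM per sample. The paper names TopHat, Cuffdiff and a human genome, while the submitters' processing notes name FastQC, STAR 2.5, Cuffnorm and the mouse build mm9, and the files list mouse Ensembl identifiers. Of 52550 genes, 147 had no symbol in GRCm38. The deposited FPKM were transformed to log2(FPKM + 1) and compared with limma 3.58.1 (intensity trend, R 4.3.3) and Benjamini-Hochberg adjustment, on genes reaching 1 FPKM in 3 or more samples. Members below this filter take their values from a fit without it. Sums and ratios were compared with exact permutation tests in scipy 1.17.1. On simulated data with normal noise, 200 of 11564 genes were shifted by 1 on the log2(FPKM + 1) scale. Of these 90% were recovered, with 6 false calls. This share is over all shifted genes and does not give the power for a single member, such as *Ly6a* with its standard error of 0.396. Depth was estimated from the steps of low FPKM values, of which 57.7 to 63.2% fell within 0.1 of a whole fragment, too few to recover reads for a count test. Stretches and coding sequences came from GENCODE M21 transcripts, aligned with Biopython 1.88.

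The members and lists were chosen with earlier results of these data known. Named were the 9 members, other LU-domain genes averaging 1 FPKM or more, the 5 genes most like *Ly6a* and the 5 most like *Ly6g*, and up to 4 abundant genes of each list. Alternatives were another pseudocount, other filters, quantile and median ratio scaling, a replicate block and leaving out samples.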

Additional observations from a re-analysis of the deposited data

How the results depend on the processing

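Of the 9 members, 0 were called in every alternative run except the replicate block, where 1 was, *Ly6c1* (limma adjusted p = 0.0487), and the gene *Ly6g2* also passed there (limma adjusted p = 0.0403). The number of all genes called, 23, became 47 with the replicate block, 13 with a pseudocount of 0.1 FPKM, 15 with no filter, 6 with an adjusted p under 0.01 and an absolute log2 fold change over 1, 12 without replicate 3 of both genotypes (chosen after seeing the data), and 10 to 21 leaving out each sample in turn. The sum of the members gave p = 0.25 and the *Ly6g* to *Ly6a* ratio p = 0.75 in an exact permutation within the replicate block. The smallest two-sided p that this blocked test allows is 0.25, so the sum reached its limit. The sum was lower in each ΔIEC sample than in the control sample of the same replicate number, at 85.9, 79.5 and 155 FPKM against 98.4, 92.0 and 162 FPKM. Deviations of samples with the same replicate number correlated at 0.194, 0.11 and 0.078, and every sample correlated best with its own number. Whether the numbers stand for pairs was not established. The planned fit holds genotype only, and the call of *Ly6c1* depends on this choice.

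Leaving out each sample in turn, the log2 difference ranged from -0.52 to 0.18 for *Ly6a*, from -0.32 to 0.12 for *Ly6g*, from -0.34 to 0.056 for *Ly6e* (0.015 among them), from -0.51 to 0.17 for the sum of the members and from -0.23 to 0.20 for the log2 ratio of *Ly6g* to *Ly6a*, so none of these 5 kept its direction. Without replicate 3 of both genotypes that ratio was 0.20 as well. *Ly6c2* turned to -0.018 with a pseudocount of 0.1 FPKM, to -0.057 without ΔIEC replicate 3 and to -0.050 without replicate 3 of both genotypes. *Ly6c1*, *Ly6d*, *Ly6g6c*, *Ly6g6d* and *Ly6g6e* kept their direction in all alternatives run, from -0.49 to -1.39 for *Ly6c1*. The cause of these changes was not tested. Quantile and median ratio scaling reversed no member. For the members under the filter, the other settings were combined with the fit without it, after seeing the data. Depth limits the members of low level, such as *Ly6d*, at 0 to 19.2 estimated fragments a sample, and *Ly6c2*, whose mean FPKM was lower still.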

Other observations

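Of a list of 9 genes next to *Ly6g6c*, *Ly6g6d* and *Ly6g6e* in the class III region, 5 passed the filter and 0 were called. The median difference of these 5 was -0.028 against -0.023 over all genes tested, on the log2(FPKM + 1) scale. *Clic1*, a chloride channel protein, was the most abundant, at 91.4, 109 and 107 FPKM in the control samples and 92.1, 107 and 102 FPKM in the ΔIEC samples, while *Csnk2b*, a subunit of casein kinase 2, was at 26.6, 28.7 and 29.1 FPKM against 28.7, 31.5 and 27.8 FPKM.

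The sum of 9 markers of fibroblasts and smooth muscle was 2.09 to 2.51 FPKM in the control samples and 1.59 to 2.12 FPKM in the ΔIEC samples. That of 9 epithelial markers was 10359 to 12759 FPKM against 13203 to 16971 FPKM. *Car1*, a carbonic anhydrase of colonocytes and the most abundant of the 9, weighs most in this sum. It was at 4033, 5628 and 4458 FPKM against 6349, 10059 and 7206 FPKM (limma adjusted p = 0.162). *Krt8*, the next most abundant, was at 2703, 3071 and 2916 FPKM against 2635, 2912 and 2922 FPKM. Of the 9, 4 had a difference below 0 and 5 above. None of the 9 passed the threshold.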
